A study of Mus musculus with 6 samples.

Results

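Residual mammary tissue was examined after an antibody against Jagged-1 or a control IgG had been given to mice whose tumours had regressed. Cells were taken from the antibody count table by their library of origin, and a cell was kept if it had 500 or more UMIs (unique molecular identifiers, 1 per captured transcript), 200 or more genes, and no more than 20% of its UMIs from mitochondrial genes. This gave 2122 cells of the IgG library and 2729 of the anti-Jagged-1 library, together 4851 of the 23144 cells kept over all 6 libraries of the series. Both libraries came from mice of strain FVB (FVB.rGH-Luc-GFP), 16 weeks old, carrying transplanted mammary tumours with a Wnt1 transgene under the MMTV promoter, which is active in mammary epithelium, and an inducible FGF receptor. The genotype was written MMTV-Wnt1/iFGRR5 for the IgG library and MMTV-Wnt1/iFGRR6 for the anti-Jagged-1 library.

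All mice of both groups had received the B/B homodimerizer, which switches the receptor on, by injection every 3 days while the tumours became established. At 7 to 9 mm the tumours were treated for 14 days with NVP-BGJ398, an FGF receptor inhibitor, followed by 14 days without drug. Mice with dormant disease were then randomized, received either antibody at 15 mg/kg weekly for 5 weeks, and gave tissue 1 week after the end of treatment. Cells were dissociated, frozen, thawed and sorted as live before 3' library preparation with version 3 of the Chromium kit. There was 1 library per antibody and the number of mice behind each was not given, so no test between antibodies was possible and every interval below covers counting error only.

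Jagged-1 is a transmembrane ligand of the Notch receptors. When a ligand on one cell binds Notch on its neighbour, the receptor is cleaved by ADAM proteases and gamma-secretase, and its intracellular domain joins RBPJ and Mastermind proteins in the nucleus to switch on genes such as Hes1, Hey1, Nrarp and Dtx1. In immune cells Notch2 is needed for marginal zone B cells, Notch1 for the T lineage, and Notch signals also act on innate lymphoid and NK cells, macrophages and dendritic cells. Interferons, which recur below, act through STAT and IRF factors that bind short GAAA-containing elements in the promoters of their target genes.

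The promoters of 3 interferon-responsive genes are shown because interferon genes were the lists with most members past the threshold in macrophage- or monocyte-like cells. These 3 are examples that held the motif marked below. Irf7, Oasl2, Xaf1, Cxcl9 and Irf1, also higher in that class, had no match in the promoter searched. The printed sequences are the 250 bases before the RefSeq transcription start (GRCm38.p6), 5' to 3' on the gene's strand. Capitals mark matches to GAAANNGAAA on the strand shown or its reverse complement TTTCNNTTTC. Isg15 (chr4:156200819-156201068, minus strand) held 3 overlapping matches, 78 to 66 bases before the start, Cxcl10 (chr5:92348890-92349139, minus strand) held 1 match 213 bases before it, and Gbp2 (chr3:142620413-142620662, plus strand) held 1 match on the other strand, 59 bases before it.
Isg15: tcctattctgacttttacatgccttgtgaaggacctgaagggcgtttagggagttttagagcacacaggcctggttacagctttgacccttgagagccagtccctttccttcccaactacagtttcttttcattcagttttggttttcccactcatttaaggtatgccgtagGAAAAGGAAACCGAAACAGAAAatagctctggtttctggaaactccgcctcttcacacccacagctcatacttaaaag
Cxcl10: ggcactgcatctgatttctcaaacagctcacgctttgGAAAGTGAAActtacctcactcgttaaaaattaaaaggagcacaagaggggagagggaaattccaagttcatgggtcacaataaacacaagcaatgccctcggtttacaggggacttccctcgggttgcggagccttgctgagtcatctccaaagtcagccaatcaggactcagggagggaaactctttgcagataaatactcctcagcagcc
Gbp2: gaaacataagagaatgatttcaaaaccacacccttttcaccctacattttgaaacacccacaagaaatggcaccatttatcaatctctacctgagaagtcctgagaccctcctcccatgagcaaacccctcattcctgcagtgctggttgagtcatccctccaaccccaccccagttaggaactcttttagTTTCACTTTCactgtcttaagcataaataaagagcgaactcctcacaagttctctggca
Of the 34 genes on the type I interferon and interferon gamma lists, 25 had a promoter in the RefSeq table and 15 of these held the motif, against 2.98% of all 32851 promoters of the same length. The lists were chosen as interferon-responsive genes, so this share is a property of the lists and does not describe either library. Among Notch target genes, 9 of 13 had a promoter in the table, and 4 of the 9 (Hes5, Hey2, Cr2 and Ptcra) held TGGGAA or its reverse complement TTCCCA, the core recognised by RBPJ, which 21.6% of all promoters held. Nrarp was not among those 4, and Hes1, Hey1, Heyl and Myc had no promoter in the table to search. These are matches of letters, not mapped binding.

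The IgG library held 9717195 UMIs in kept cells with a median of 4074.5 per cell, and the anti-Jagged-1 library 14788386 with a median of 4799. Shares of cells with a transcript are therefore also given after thinning each cell to 1000 UMIs. A set of 129 cell barcodes was kept in both libraries. In 127 of these pairs the cell with fewer UMIs held under 20% of the UMIs of the other, and over all pairs the median was 7.18%. The paired cells fell in the same class in 117 of 129 cases. The lower-UMI cells of the 127 pairs, 63 in IgG and 64 in anti-Jagged-1 were unevenly spread over classes, with 15 IgG and 39 anti-Jagged-1 cells among macrophage- or monocyte-like cells and 11 and 0 among basal epithelial-like cells. Results for rare classes are given with and without them. The source of the shared barcodes was not tested. Doublets were in effect not removed, since the caller marked 5 IgG and 7 anti-Jagged-1 cells.

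**Figure D1:**
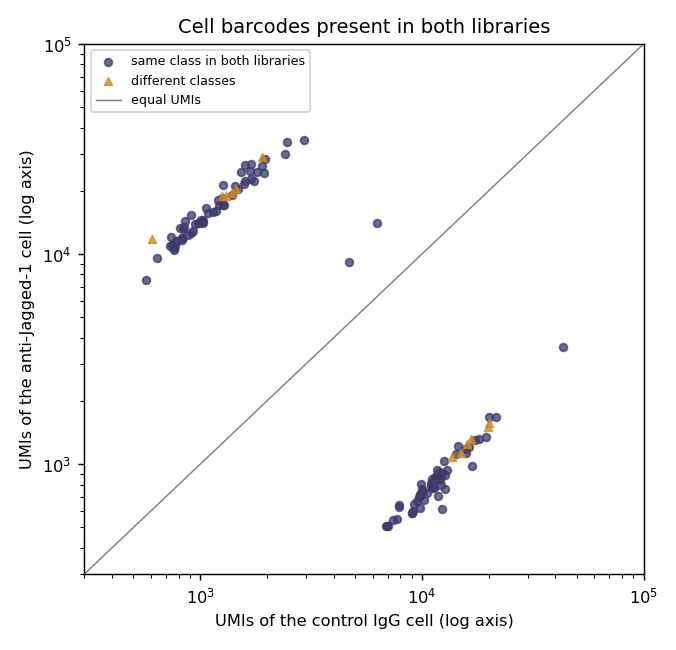
UMIs of the 2 cells that carry the same barcode in both libraries, on log axes, 129 barcodes. Nearly all points lie in 2 bands away from the line of equal UMIs, where the lower cell has a median of 7.18% of the UMIs of the higher cell, and 2 pairs lie nearer to that line.

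Immune cells made up 98.3% of the IgG library (95% Clopper-Pearson interval 97.7 to 98.8%) and 98.4% of the anti-Jagged-1 library (97.9 to 98.9%), although the source tissue is labelled as mammary gland tumour. B-like cells made up 7.87% of kept cells with IgG (6.76 to 9.10%, 167 cells) and 2.53% with anti-Jagged-1 (1.97 to 3.19%, 69 cells). The intervals did not overlap, and the B-like class was a single cluster led by Cd79a, Ms4a1 and Ebf1. NK-like cells made up 8.91% with IgG (7.73 to 10.2%, 189 cells) and 12.8% with anti-Jagged-1 (11.6 to 14.1%, 349 cells). When each library was clustered on its own the IgG share of NK-like cells was 4.38%. T-like cells were the largest class at 71.5% (69.6 to 73.4%, 1518 cells) with IgG and 75.3% (73.7 to 76.9%, 2056 cells) with anti-Jagged-1. Over the alternative filters and clusterings it ranged from 67.6 to 75.6% with IgG and from 73.0 to 77.4% with anti-Jagged-1, and with each library clustered on its own it was 75.2% in both.

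Macrophage- or monocyte-like cells made up 3.11% (2.41 to 3.94%, 66 cells) with IgG and 2.27% (1.75 to 2.90%, 62 cells) with anti-Jagged-1. Without the lower-UMI cells of shared barcodes the shares were 2.48% (1.85 to 3.24%, 51 cells) and 0.863% (0.548 to 1.29%, 23 cells), and the intervals no longer overlapped. Plasma-like cells, led by immunoglobulin genes and Jchain, were 0.330% with IgG and 0.770% with anti-Jagged-1. Without the lower-UMI cells they were 0.146% (0.0301 to 0.425%, 3 cells) and 0.713% (0.430 to 1.11%, 19 cells). The size of this difference depended on the clustering. With each library clustered on its own, plasma-like cells numbered 15 with IgG and 21 with anti-Jagged-1. At the stricter filter described below they numbered 6 and 11. Clustered again without the lower-UMI cells they numbered 2 and 18, and at resolutions 0.5 and 2.0 they numbered 7 and 21. Gamma-delta T-like cells were 0.424% (9 cells) and 0.806% (22 cells) with overlapping intervals. Neutrophil-like cells were 0.377% (8 cells) and 0.110% (3 cells), also overlapping. Dendritic-like cells (0.754 and 0.513%), plasmacytoid dendritic-like cells (0.943 and 0.733%) and fibroblast-like cells (0.754 and 0.586%) had overlapping intervals too. Epithelial cells were scarce in both. The basal epithelial-like cluster, in which eGFP was the leading gene, held 12 IgG and 13 anti-Jagged-1 cells, and of the 12 IgG cells only 1 remained without the lower-UMI cells of shared barcodes. Fewer cells of a class and poorer recovery of it after freezing and sorting cannot be told apart.

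**Figure D2:**
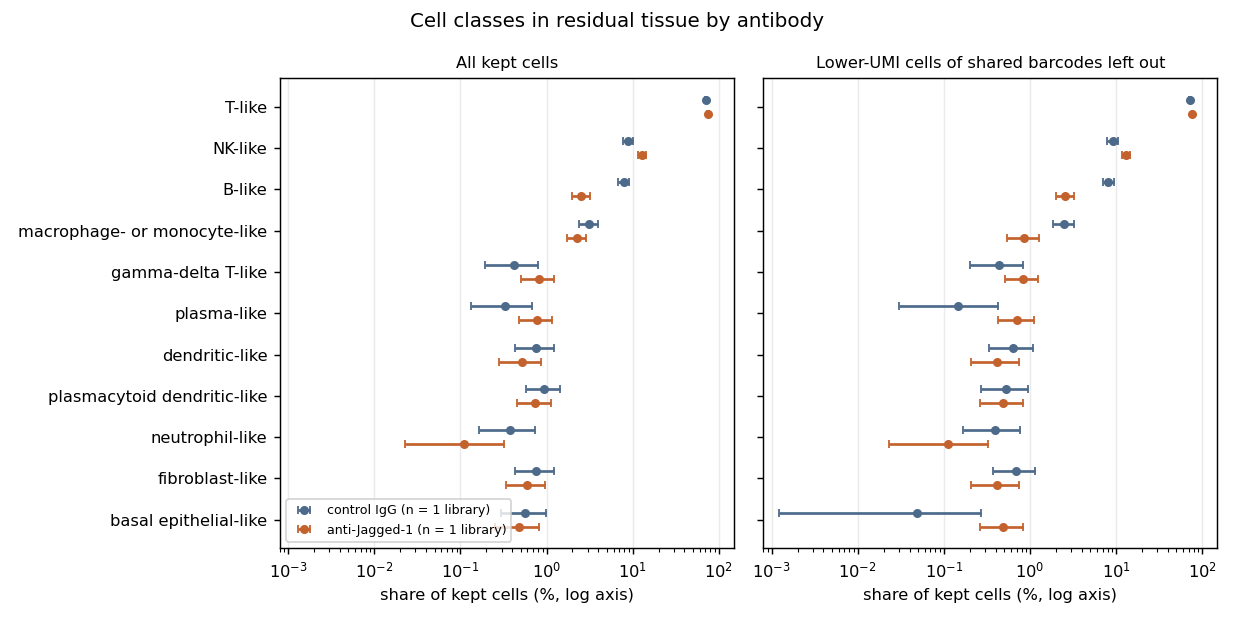
Share of kept cells in each class (log axis), with 95% Clopper-Pearson intervals, 1 library per antibody. The left panel has all kept cells and the right panel leaves out the lower-UMI cells of shared barcodes. B-like intervals are apart in both panels, and macrophage- or monocyte-like intervals (2.48 against 0.863%) only in the right one.

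Gene levels are UMIs summed over the cells of a class and scaled to the class total (CPM, counts per 1000000 UMIs), with exact Poisson intervals. A gene is called higher or lower with anti-Jagged-1 when its ratio was at least 1.5-fold and the counting interval of the ratio excluded no change. It had to have at least 20 UMIs over both libraries. Log2 ratios are anti-Jagged-1 over IgG. Since each class is 1 sum per library, a few cells can carry a gene, and cell counts are given for some of the genes named.

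Transcripts of the antibody's target were low in these cells. Jag1 (chromosome 2, 137081456 to 137116644) was measured at 24.1 CPM with IgG and 24.6 CPM with anti-Jagged-1 in NK-like cells, and at 6.67 and 7.85 CPM in T-like cells. Among the named classes Jag1 was highest in gamma-delta T-like cells, at 76.2 CPM (4 UMIs) and 84.5 CPM (10 UMIs). In basal epithelial-like cells of the anti-Jagged-1 library Jag1 reached 47.8 CPM, beside 71.6 CPM for Jag2 and 41.8 CPM for Dll1, the other ligands found there. A transcript level does not report binding of the antibody to its protein, so none of these values checks the labels. The ligand Dll4 stood out in plasmacytoid dendritic-like cells, at 152 CPM (93.1 to 235) with IgG and 27.0 CPM (8.78 to 63.1) with anti-Jagged-1. Its 20 IgG UMIs came from 7 cells with at most 6 in one, and the 5 anti-Jagged-1 UMIs from 3 cells. Without the lower-UMI cells of shared barcodes these levels were 165 and 27.9 CPM.

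The receptors Notch1 and Notch2 were present in every large class, while Notch3 was at 0 in the T-, NK-, B- and macrophage- or monocyte-like sums of both libraries. Notch1 was at 53.4 CPM (47.9 to 59.3) with IgG and 65.3 CPM (60.6 to 70.4) with anti-Jagged-1 in T-like cells, a log2 ratio of 0.29 and under 1.5-fold. Notch2 there was at 41.6 and 32.0 CPM (log2 -0.38), also under 1.5-fold. B-like cells had Notch2 at 61.8 CPM (46.9 to 79.9) and 58.2 CPM (37.7 to 85.9), overlapping in full. Macrophage- or monocyte-like cells had the highest Notch2 of these classes, 135 CPM (104 to 173) and 105 CPM (67.5 to 157).

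Among Notch target genes, Nrarp was lower in NK-like cells. Nrarp (chromosome 2, 25180758 to 25183339), a feedback inhibitor that Notch itself induces, was at 207 CPM (179 to 239) with IgG and 120 CPM (106 to 136) with anti-Jagged-1 in NK-like cells, a log2 ratio of -0.79. The UMIs came from 83 and 128 cells, and no cell gave more than 5.29% of them. The gene was lower in both NK-like clusters, from 219 to 119 CPM in cluster 5 and from 192 to 121 CPM in cluster 7. With TMM scaling the ratio was -0.68 for the class and -0.55 for cluster 7, the latter under 1.5-fold. After thinning, 11.6% of IgG and 7.74% of anti-Jagged-1 NK-like cells had an Nrarp UMI with overlapping intervals (7.44 to 17.1% and 5.16 to 11.1%). Among macrophage- or monocyte-like cells 0 of 57 IgG and 0 of 32 anti-Jagged-1 cells had one, which allows shares of up to 6.27 and 10.9%. In T-like cells Nrarp was at 54.6 and 47.3 CPM (log2 -0.21).

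Hes1, the transcriptional repressor most often used as a Notch readout, gave unlike ratios in the NK-like clusters. Cluster 5 scored 0.36 for NK and 0.36 for T markers, so its NK-like name is uncertain, while cluster 7 scored 0.98 for NK markers. In cluster 5, led by Xcl1, Car2 and Krt83, Hes1 was at 377 CPM (325 to 434) with IgG and 217 CPM (191 to 244) with anti-Jagged-1, a log2 ratio of -0.80. Notch2 was also lower in that cluster, from 63.8 to 30.3 CPM (log2 -1.08). In cluster 7, led by Gzma, Klra4 and Klra7, Hes1 was at 87.6 CPM (61.4 to 121) and 123 CPM (101 to 148), and Notch2 at 31.6 and 38.1 CPM, neither past the threshold. Over the whole NK-like class Hes1 was at 247 and 177 CPM (log2 -0.48), under 1.5-fold, and with each library clustered on its own its ratio was 0.73. Its UMIs in the class came from 45 IgG cells (23.8%) and 93 anti-Jagged-1 cells (26.6%). After thinning these shares were 14.8% (10.1 to 20.7%) and 12.6% (9.31 to 16.6%), with overlapping intervals. The difference between clusters was not tested. Hes1 was almost absent from T-like cells, at 1.40 and 1.89 CPM.

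Of the 7659 genes measured in NK-like cells, 8.71% were past 1.5-fold in either direction, 2.10% higher and 6.61% lower. Of 6 Notch targets measured there, Nrarp was lower and none was higher (median log2 -0.33, all genes -0.09). Of 17 genes of Notch processing and the nuclear complex, 3 were lower and 1 was higher (median -0.30). The lower ones included Mib1, the ubiquitin ligase that activates ligands, at 47.1 and 22.2 CPM, and the fringe glycosyltransferase Mfng at 54.8 and 36.4 CPM, which was under 1.5-fold without the shared barcodes' lower-UMI cells. Maml1, a Mastermind coactivator, was higher, at 20.8 and 38.3 CPM. In T-like cells 7.14% of 10030 genes were past 1.5-fold, 2.17% higher and 4.97% lower. Of 7 Notch targets there, Gata3 was lower, at 92.3 CPM (85.1 to 100) and 57.8 CPM (53.3 to 62.5), and of 19 processing genes none was past it in either direction (median -0.22).

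B-like cells had no Notch target past 1.5-fold among 4 measured, where 7.29% of 5694 genes were past it, 4.43% higher and 2.86% lower. Dtx1, a Notch-induced gene of marginal zone B cells, was at 36.2 CPM (25.1 to 50.6) and 27.9 CPM (14.4 to 48.8) there. Of 14 processing genes in B-like cells, Lfng was higher (10.7 to 46.6 CPM, 10 and 20 UMIs) and Spen, a corepressor of RBPJ, was lower (47.9 to 20.9 CPM). Without the cells that held a Cd3 UMI, Spen had a log2 ratio of -0.72 and was no longer past the threshold. In macrophage- or monocyte-like cells Rbpj, the DNA-binding partner of Notch, was lower at 155 CPM (121 to 195) and 87.8 CPM (53.7 to 136), the only one of 11 processing genes past 1.5-fold there, where 10.5% of 3929 genes were past it, 6.01% higher and 4.48% lower. The mean of CPM per cell without the lower-UMI cells of shared barcodes gave Rbpj a ratio of -0.40.

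**Figure D3:**
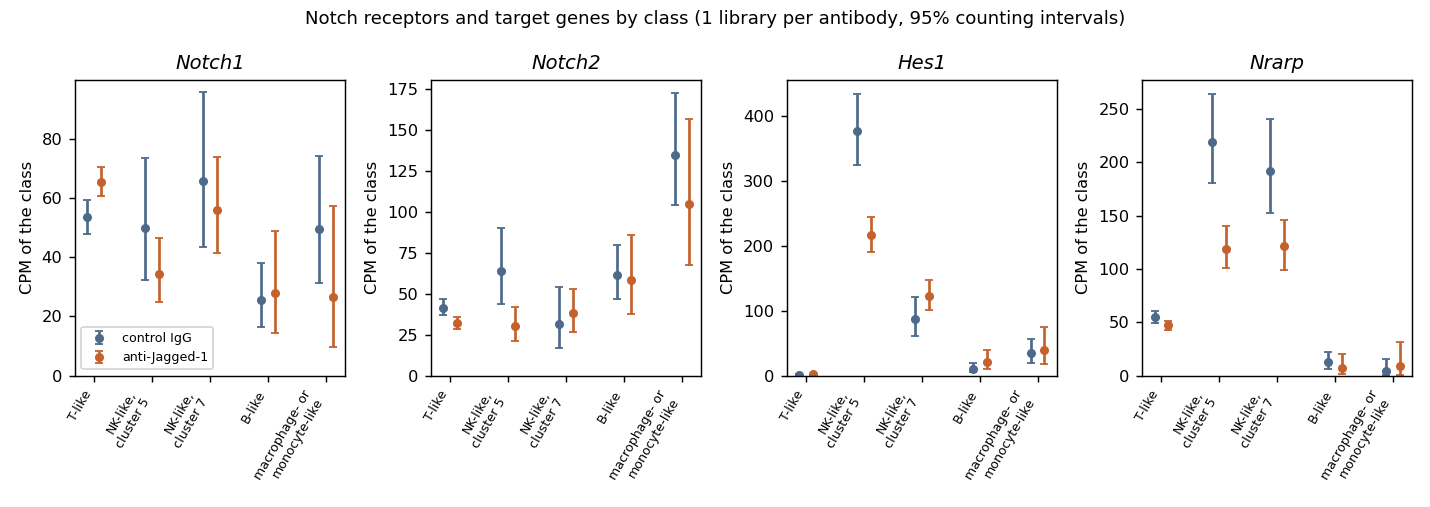
CPM of 2 Notch receptors and 2 Notch target genes in the large classes, with NK-like cells split by cluster. Bars are 95% Poisson intervals of 1 library per antibody. Nrarp is lower with anti-Jagged-1 in both NK-like clusters, while Hes1 is lower in cluster 5 (377 to 217 CPM) and not in cluster 7.

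In T-like cells, Xcl1, Txnip and Tbx21 were among the genes lower with anti-Jagged-1, and the checkpoint gene Lag3 and 6 of 21 cell cycle genes were higher. The largest T-like cluster was cluster 1 with IgG (20.4% of T-like cells) and cluster 0 with anti-Jagged-1 (24.1%), both with Cd8b1 among their leading genes. Smaller clusters differed in their share of T-like cells. Clusters 9, 14 and 16, which have Lag3 among their leading genes, held 3.03, 1.52 and 0.791% with IgG and 6.03, 3.70 and 2.58% with anti-Jagged-1. Cluster 16 was shallow, with a median of 1107 UMIs per cell, against 3148.5 in cluster 9 and 5154 in cluster 14. Clusters 13 and 17, led by Klrc1 and by Dusp10 and Lef1, held 6.98 and 3.03% with IgG and 1.02 and 0.778% with anti-Jagged-1. Of all genes measured, 218 were higher and 498 lower, but with TMM scaling, which moved the log2 ratios by 0.09, the split was 324 and 335. Xcl1, a chemokine for cross-presenting dendritic cells, was at 313 CPM (299 to 327) with IgG and 157 CPM (149 to 164) with anti-Jagged-1. Txnip, which restrains glucose uptake, was at 194 and 101 CPM (log2 -0.94). Tbx21, the transcription factor of type 1 responses, was at 70.1 and 39.4 CPM (log2 -0.83). Each of these was found in at least 329 cells of either library, so none rested on a few cells. With each cluster given the same weight the ratios of Xcl1 and Txnip were -0.63 and -0.84, while Tbx21 (-0.58) was under 1.5-fold.

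Lmna, which encodes lamin A/C, was at 149 and 88.3 CPM in T-like cells, and the cold-inducible RNA-binding protein gene Cirbp at 281 and 170 CPM. Of 14 activation and cytokine genes, 4 were lower and 1 was higher (median log2 -0.21, all genes -0.08). Tnf was at 72.5 and 47.0 CPM, Cd40lg at 59.1 and 36.5 CPM, and Il2 at 20.6 and 10.1 CPM, of which 51.1% of the IgG UMIs came from 1 cell. Ccl3 was the one that was higher, at 24.4 and 50.8 CPM. Nr4a1, an early response gene of T cell receptor signalling, was lower too, at 139 and 91.8 CPM. With equal cluster weights Lmna (-0.54), Cd40lg (-0.30) and Nr4a1 (-0.27) were under 1.5-fold, and with TMM scaling Tnf (-0.54) and Nr4a1 (-0.51) were.

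Itgae, the CD103 integrin of tissue-resident lymphocytes, was at 49.2 CPM (43.9 to 54.9) with IgG and 25.8 CPM (22.8 to 29.1) with anti-Jagged-1 in T-like cells. Its log2 ratio of -0.93 became -0.58 at resolution 2.0 and -0.34 when cells were clustered again without the lower-UMI cells of shared barcodes. Of 10 TGF-beta and activin genes, the signal transducer Smad3 and the receptor gene Acvr2a (28.9 and 17.3 CPM) were lower and none was higher. In the MHC class II list 3 genes were lower and H2-Oa was higher, with H2-Ab1 at 22.3 and 9.83 CPM and Cd74 at 49.0 and 29.4 CPM. All 7 class II genes measured there were candidates for free RNA from other classes. B-like cells, which express them, were fewer in the same library, and whether this bears on the T-like levels was not tested. Clustered again without the lower-UMI cells, Cd74 had a ratio of 0.06.

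Lag3, an inhibitory receptor of antigen-experienced T cells, was at 106 CPM (98.6 to 115) and 196 CPM (188 to 205), found in 213 IgG and 545 anti-Jagged-1 T-like cells. It was among the leading genes of several T-like clusters, so clustering and this difference share the same counts. Of 11 exhaustion and checkpoint genes, Havcr2 was also higher, at 9.93 and 17.7 CPM, while Cd160, at 38.5 and 24.2 CPM, and Cd244a were lower. Clustered again without the lower-UMI cells, Cd160 had a ratio of 0.02. With each cluster given the same weight Lag3 (log2 0.22), Havcr2 (0.32) and Cd160 (-0.05) were under 1.5-fold, as were Stmn1 (0.08), Ube2c (0.32) and Zswim6 (0.42). Sgk1, a kinase of salt and mTORC2 signalling, was at 69.4 and 129 CPM (log2 0.89), the sulfotransferase gene Sult2b1 at 49.0 and 92.4 CPM (log2 0.91), and Ly6c2, a surface marker of memory and effector T cells as well as monocytes, at 119 and 212 CPM (log2 0.83). Zswim6 was at 36.6 and 63.8 CPM. Of 21 cell cycle genes measured, 6 were higher and none was lower (median log2 0.42), with Stmn1 at 95.4 and 158 CPM, Rrm2 at 7.45 and 17.5 CPM and Ube2c at 2.33 and 6.43 CPM. Stmn1 and Rrm2 lead the cycling cluster 19.

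Cells with at least 2 of 6 mitotic genes made up 0.988% (0.554 to 1.62%) of IgG and 2.68% (2.02 to 3.47%) of anti-Jagged-1 T-like cells. Thinned to 1000 UMIs, the shares were 0.464 and 0.493%, and their intervals overlapped. Mki67 was higher in the sum, at 9.15 and 15.0 CPM, but its ratio was -0.01 when each cluster had the same weight. Of 10 naive and circulating genes, 1 was higher and none was lower (median log2 -0.16). The stress response list had Hsph1, a heat shock gene, higher at 29.5 and 59.5 CPM and Nr4a1 lower among 20.

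**Figure D4:**
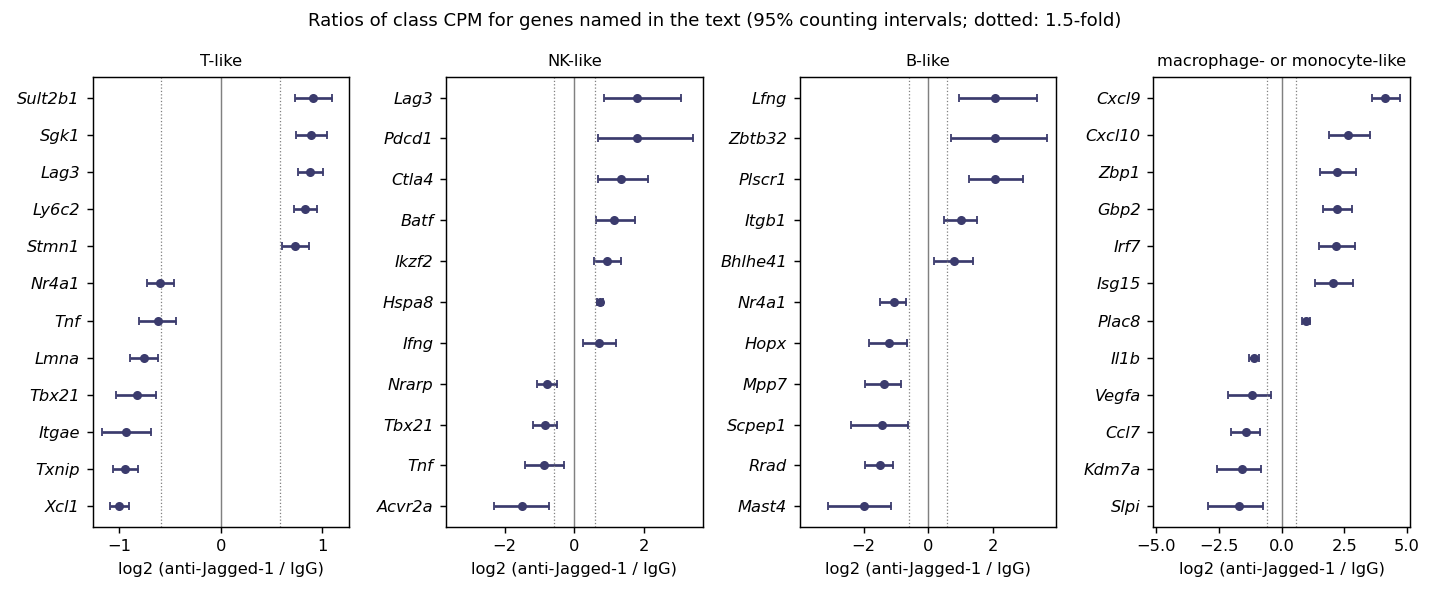
Log2 ratios of class CPM, anti-Jagged-1 over IgG, with 95% counting intervals (1 library per antibody) for genes named in the text. Dotted lines mark 1.5-fold. The axis spans differ by panel. Xcl1, Txnip and Tbx21 lie left of the line in T-like cells, Nrarp and Acvr2a in NK-like cells, Mast4 and Rrad in B-like cells, and interferon genes such as Cxcl9 lie right of it in macrophage- or monocyte-like cells.

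T-like cells were then divided by transcripts of the coreceptors, a cut on single UMIs that misses shallow cells. Cells with Cd8a or Cd8b1 and no Cd4 were 49.9% with IgG and 55.6% with anti-Jagged-1, or 31.4% (29.0 to 33.8%) and 33.3% (31.2 to 35.3%) after thinning. Cells with Cd4 alone were 13.6 and 13.3%, and 6.04 and 5.22% after thinning. Foxp3 was found in 1.05 and 0.924% and Trdc in 6.85 and 7.68%, which thinned to 0.531 and 0.493% and to 4.25 and 4.93%. None of these thinned shares had separate intervals. These cuts were made within the T-like class, which leaves out cluster 11, an unnamed cluster with Foxp3 among its leading genes. Cluster 11 held 4.05% (3.25 to 4.98%) of kept cells with IgG and 2.57% (2.00 to 3.23%) with anti-Jagged-1, with separate intervals.

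In the CD8 cells (758 and 1144), 8.35% of 9102 genes were past 1.5-fold. Of these 235 were higher (2.58%) and 525 lower (5.77%), or 333 and 353 with TMM scaling. Nr4a1 was at 137 CPM (124 to 150) and 69.0 CPM (62.5 to 76.1), Tnf at 89.7 and 44.7 CPM and Xcl1 at 197 and 104 CPM, the same order as in the whole class. Xcl1 was under 1.5-fold at resolution 2.0 (log2 -0.34) and when clustered again without lower-UMI cells (-0.36). Lag3 was at 72.6 and 172 CPM, in 111 and 327 cells, and Sult2b1 at 48.5 and 110 CPM. Lag3 leads some T-like clusters. Of 20 cell cycle genes 9 were higher and none was lower (median log2 0.57, all genes -0.07).

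The gene Prss2 marked a minority of CD8 cells, nearly all of them in the IgG library. Prss2, a trypsinogen gene that lies inside the T cell receptor beta locus (chromosome 6, 41521787 to 41525079, between Trbv30 and Trbd1), was found in 116 of 758 IgG CD8 cells (15.3%, 12.8 to 18.1%) and 1 of 1144 anti-Jagged-1 CD8 cells (0.0874%, up to 0.486%). In cluster 4, where it is a leading gene, it was found in 73 of 178 IgG and 1 of 139 anti-Jagged-1 cells, and in cluster 1 in 33 of 309 and 0 of 393, which allows a share of up to 0.934% (exact upper bound). Over all kept cells the counts were 125 of 2122 and 2 of 2729. Leaving out the lower-UMI cells of shared barcodes gave the same log2 ratio in CD8 cells, -7.40. Transcripts of T cell receptor beta V segments were rarely captured. The most frequent in the 125 IgG cells with Prss2, Trbv4, was found in 3 of them and in 13 of 1394 other IgG T-like cells. These counts are too low to tell whether the cells share a T cell receptor, which was not tested.

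The CD4 cells (207 and 273) differed in other genes, with 7.68% of 7294 past 1.5-fold, 3.59% higher and 4.09% lower. Il10, an anti-inflammatory cytokine, was at 88.8 CPM (71.2 to 109) in 23 IgG cells and 270 CPM (243 to 298) in 72 anti-Jagged-1 cells. Ikzf2, the Helios factor of regulatory T cells, was at 159 and 359 CPM, and both lead T-like or Foxp3-led clusters. With each library clustered on its own Ikzf2 had a ratio of 0.34. Nfil3, a transcription factor that can induce Il10, was at 82.7 and 183 CPM, and Osgin1 at 27.2 and 104 CPM. Trat1, an adaptor of the T cell receptor, was lower at 81.7 CPM (64.9 to 102) and 22.8 CPM (15.7 to 32.0). Of 11 cytotoxicity genes 5 were lower and none was higher (median log2 -0.47, all genes -0.02), with Klrd1 at 111 and 50.5 CPM. Of 10 regulatory T genes 4 were higher and 1 was lower. The Foxp3-led cluster 11 (86 and 70 cells) lay outside the T-like class, so its cells were not among these CD4 cells. Xcl1 was at 154 and 45.6 CPM, though 1 cell gave 54.5% of its anti-Jagged-1 UMIs.

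In Trdc-positive T-like cells (104 and 158) Klf2 and Ccr7 were higher with anti-Jagged-1 and Itgae, Xcl1 and Rgs1 were lower. Here 9.82% of 6110 genes were past 1.5-fold, 148 higher (2.42%) and 452 lower (7.40%), or 264 and 231 with TMM scaling, which moved the ratios by 0.16. Klf2, the factor that keeps lymphocytes in circulation, was at 160 CPM (129 to 197) with IgG and 429 CPM (390 to 470) with anti-Jagged-1. Ccr7, a homing receptor for lymph nodes, was at 28.8 and 174 CPM, in 11 and 47 cells. Of 7 naive and circulating genes 4 were higher and none was lower (median log2 0.79, all genes -0.12).

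Itgae was at 202 CPM (166 to 243) and 70.0 CPM (54.9 to 88.0) in the same cells, Xcl1 at 1243 and 515 CPM, and Rgs1, a brake on chemokine receptor signalling found in tissue-resident cells, at 3180 and 1424 CPM. These 3 calls were lost at resolution 2.0 and when cells were clustered again without lower-UMI cells, with log2 ratios of -0.60 and -0.02 for Itgae, -0.41 and -0.39 for Xcl1 and -0.38 and -0.25 for Rgs1. Stmn1 was at 19.8 and 172 CPM and 5 of 9 cell cycle genes were higher. Most of these cells lay in cluster 3 (83.7 and 78.5%), so its genes are not independent of them. In cluster 3 (155 and 246 cells), where 11.3% of 6988 genes were past 1.5-fold, 120 were higher (1.72%) and 670 lower (9.59%), or 298 and 331 with TMM scaling, which moved the ratios by 0.19. There the protease gene Gzmb was at 292 and 84.7 CPM, 34.4% of the IgG UMIs from 1 cell, and Krt83 at 156 and 44.4 CPM.

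Cytokine genes of type 2 responses separated the libraries in cluster 2, a Cd4- and Cd40lg-led cluster of 224 IgG and 226 anti-Jagged-1 cells in which 6.67% of 6562 genes were past 1.5-fold, 2.36% higher and 4.31% lower. Il5 had 226 UMIs in 10 IgG cells and 2 UMIs in 1 anti-Jagged-1 cell. Il13 had 170 UMIs in 7 IgG cells and 23 in 3 anti-Jagged-1 cells, and Csf2 134 UMIs in 9 IgG cells and 0. Cells with at least 3 UMIs of these 3 genes numbered 10 of 224 and 2 of 226, so the differences rest on about 10 cells. More cells carried the higher Klf2 (337 and 687 CPM, 116 and 157 cells), the interferon-inducible Ifi27l2a (647 and 1517 CPM) and the lower chemokine receptor gene Cxcr6 (635 and 307 CPM, 145 and 82 cells).

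In cluster 4 (178 and 139 cells), 8.94% of 5426 genes were past 1.5-fold, 3.17% higher and 5.77% lower, and 7 of 9 activation and cytokine genes were lower with none higher (median log2 -1.14, all genes -0.04). Ifng was at 287 CPM (246 to 333) and 57.8 CPM (39.8 to 81.2), though it is a leading gene of another T-like cluster. Nfkbid, an inhibitor of NF-kB, was at 154 and 28.0 CPM, and Xcl1 at 267 and 49.0 CPM. The transcription factor gene Maf was higher, at 63.9 and 172 CPM. In the same cluster 7 of 19 immediate early and stress genes were lower and 2 higher (median -0.45).

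Cluster 11, left unnamed and led by Tnfrsf4, Ctla4 and Foxp3, held 86 and 70 cells with 8.47% of 4583 genes past 1.5-fold, 2.53% higher and 5.93% lower. Activation genes were again lower in 5 of 10 cases and higher in none (median log2 -0.86, all genes -0.07). Nt5e, the CD73 enzyme that makes adenosine, was at 472 CPM (403 to 549) and 184 CPM (145 to 229), Socs2 at 212 and 67.5 CPM and Txnip at 161 and 53.5 CPM. Satb1, a chromatin organiser, was at 155 and 370 CPM. Ccl5 was at 1033 and 4804 CPM, with 51.6% of the IgG UMIs from 1 cell.

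NK-like cells as a whole had 161 genes higher and 506 lower, or 273 and 305 with TMM scaling, which moved the log2 ratios by 0.11. Hspa8, a constitutive heat shock chaperone, was at 1430 CPM (1354 to 1510) with IgG and 2368 CPM (2303 to 2434) with anti-Jagged-1. Batf, an AP-1 family factor, was at 36.2 and 81.3 CPM and Ikzf2 at 78.9 and 152 CPM. Of 20 immediate early and stress genes 4 were higher, all of them heat shock genes, and 2 were lower. Heat shock genes respond to handling of tissue, and their part in the other differences was not tested.

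Tbx21 was at 133 CPM (110 to 158) and 73.7 CPM (62.6 to 86.2) in NK-like cells, and Acvr2a, an activin receptor, at 35.1 and 12.3 CPM. Tcf7, a factor of immature NK and innate lymphoid cells, was at 124 and 80.3 CPM and Klf4 at 202 and 134 CPM, which was under 1.5-fold (log2 -0.54) without 4 mast or Il22 cells. Ifng was at 53.7 and 88.4 CPM while Tnf was at 54.8 and 30.2 CPM. With each library clustered on its own, which left 93 IgG NK-like cells, Tnf reversed to a log2 ratio of 1.27, and Tbx21 (-0.55), Acvr2a (-0.93) and Tcf7 (-0.17) were not past the threshold. The lectin receptor and maturation list had 2 of 16 lower and none higher.

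Among inhibitory receptors, 3 were higher from a low base in NK-like cells. Lag3 was at 9.86 and 35.9 CPM, Pdcd1 at 6.58 and 24.6 CPM and Ctla4 at 21.9 and 56.2 CPM. They are 3 of the 9 checkpoint genes measured, and none was lower (median log2 -0.07). Of 12 T cell receptor and costimulation genes 3 were higher beside them, Cd3e at 19.7 and 48.2 CPM, Cd3d at 93.2 and 147 CPM, and Icos. The 12 T markers summed to 2840 CPM with IgG and 3020 CPM with anti-Jagged-1. All of these genes were candidates for free RNA, and with each library clustered on its own Cd3d and Cd3e had ratios of -0.28 and -0.20. With doublets removed at a fixed rate Pdcd1 (0.95), Cd3e (0.12) and Cd3d (0.16) were not past the threshold.

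Some of the widest ratios in NK-like cells came from very few cells. Mast cell protease and tryptase genes, Mcpt4 (417 IgG UMIs) and Tpsb2 (203), and the chemokine gene Ccl2 (213) each came from 3 IgG cells, and Il22 (306) and its copy Iltifb (318) from 1, all with 0 UMIs in the anti-Jagged-1 library. Reads of Il22 and Iltifb may be split between near-identical copies. The 9 mast or basophil markers summed to 1163 and 37.8 CPM in this class. Without the 4 IgG cells that held mast cell or Il22 UMIs the log2 ratios of Egr1 and Cma1, otherwise -1.31 and -2.71, were 0.32 and 0.29.

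The 2 NK-like clusters are described in turn, and the difference between them was not tested. In cluster 5 (101 and 198 cells), where 9.40% of 6417 genes were past 1.5-fold (185 or 2.88% higher and 418 or 6.51% lower, 284 and 279 with TMM scaling), 5 of 9 activation genes were higher and Tnf was lower (median log2 0.59, all genes -0.08). Icam1, an adhesion molecule induced by NF-kB, was at 122 CPM (93.0 to 156) and 256 CPM (228 to 286), and Csf2 at 23.9 and 90.8 CPM, in 6 and 15 cells. The granzyme gene Gzma, which leads cluster 7, was at 301 and 572 CPM in cluster 5.

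In cluster 7 (88 and 151 cells), 8.76% of 5831 genes were past 1.5-fold (163 or 2.80% higher and 348 or 5.97% lower, 258 and 206 with TMM scaling). Sgk1 was higher at 46.3 and 119 CPM and Nme1, a nucleoside diphosphate kinase, at 131 and 279 CPM. Fcrl6, an Fc receptor-like gene of cytotoxic lymphocytes, was lower at 117 CPM (86.2 to 155) and 41.4 CPM (29.2 to 57.1), as was the convertase gene Pcsk7 at 94.9 and 32.5 CPM. Cd3d was at 110 and 240 CPM, so T cell genes were found in this NK-like cluster in both libraries.

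Nr4a1, Nr4a2 and Rrad were among the genes lower in the B-like cells of the anti-Jagged-1 library. Of the genes measured, 252 were higher and 163 lower, or 198 and 217 with TMM scaling. Nr4a1 was at 319 CPM (283 to 357) with IgG and 151 CPM (117 to 193) with anti-Jagged-1, Nr4a2 at 250 and 133 CPM, and the small GTPase gene Rrad at 364 and 128 CPM. Mast4 was at 105 and 25.6 CPM, Mpp7 at 205 and 79.1 CPM, Hopx at 168 and 72.2 CPM and Scpep1 at 89.5 and 32.6 CPM. Of 12 interferon gamma genes, Irf1 (229 and 123 CPM) and Irgm1 (85.2 and 41.9 CPM) were lower and none was higher. Nfkbie, an NF-kB inhibitor induced by NF-kB, was at 135 and 69.8 CPM. Each of these 10 genes was still lower past the threshold without the B-like cells that held a Cd3 UMI. Of 19 immediate early and stress genes only Nr4a1 was lower, and the heat shock genes Hspa1b (21.3 and 65.2 CPM) and Hsph1 (19.2 and 62.8 CPM) were higher. Of 11 B activation genes Nr4a1 was lower and Egr2, another early response gene, was higher at 13.9 and 34.9 CPM, in 6 and 5 cells.

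Some genes of B cells were higher. Plscr1 was at 21.3 and 90.8 CPM (20 and 39 UMIs), Bhlhe41, a factor of B-1 cells, at 61.8 and 107 CPM, and Zbtb32, another B-1 and memory gene, at 7.46 and 32.6 CPM (7 and 14 UMIs). Dtx1, on the same marginal zone and B-1 list, was at 36.2 and 27.9 CPM with overlapping intervals. A shift between types of B cell was not tested. The integrin gene Itgb1 was at 74.6 and 151 CPM, 1 of 7 adhesion and migration genes that were higher among 15, where 1 was lower (median log2 0.57, all genes 0.03). Follicular, class II and plasma lists had at most 1 gene past 1.5-fold each.

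Genes of T cells were higher in B-like cells as well. Of 10 T cell receptor and costimulation genes 7 were higher (median log2 1.33) and of 7 cytotoxicity genes 5, and the 12 T markers summed to 276 CPM with IgG and 875 CPM with anti-Jagged-1. Cd3g, at 41.6 and 161 CPM, came from 8 anti-Jagged-1 cells, 1 of which gave 49.3% of its UMIs, and Gzmb and Ccl4 came almost wholly from 1 cell (98.0 and 97.7%). A Cd3 UMI was found in 14.4% (24) of IgG and 17.4% (12) of anti-Jagged-1 B-like cells. Without those cells 346 genes were past 1.5-fold, and 6 adhesion genes were higher and none lower (median 0.44). Doublets and free RNA in these cells were not tested.

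In macrophage- or monocyte-like cells the summed UMIs showed a broad difference in interferon-responsive genes. Of 11 type I interferon genes measured, 10 were higher with anti-Jagged-1 and none was lower (median log2 1.53, all genes 0.01), and of 11 interferon gamma genes 8 were higher and none was lower. Irf7, the master factor of the type I response, was at 55.8 CPM (36.5 to 81.8) with IgG and 255 CPM (193 to 329) with anti-Jagged-1. Isg15, the ubiquitin-like modifier, was at 51.5 and 215 CPM, and the nucleic acid sensor Zbp1 at 53.7 and 250 CPM. Gbp2 was at 83.8 and 386 CPM and Oasl2 at 12.9 and 101 CPM. The 3 genes whose promoters are printed above, Isg15, Cxcl10 and Gbp2, were all in this group. The motif was held by 9 of the 14 higher list members with a promoter in the table. Of all 25 list members with a promoter there, higher or not, 15 held it, so the motif did not set the higher genes apart.

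These sums rested on few cells and depended on how cells were weighted. The class had 66 IgG and 62 anti-Jagged-1 cells with median UMIs of 8453.5 and 1056.5, since 39 of the latter were lower-UMI cells of shared barcodes. Per cell, UMIs of the 33 interferon genes per 10000 had a median of 48.1 (quartiles 25.9 and 65.1) with IgG and 45.6 (19.1 and 72.8) with anti-Jagged-1. Without the lower-UMI cells the medians were 47.8 in 51 IgG cells and 52.8 in 23 anti-Jagged-1 cells, with upper quartiles of 59.7 and 122 and highest cells of 105 and 243. The medians were close to each other, and the upper quartile and the highest cell were higher in the anti-Jagged-1 library. One cell gave 18.1% of those anti-Jagged-1 UMIs, and without the top cell of each library the type I median was 1.51 with 10 genes higher, and the interferon gamma median was 0.97 with 6 higher.

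Leaving out the lower-UMI cells raised the list medians to 1.71 and 1.68, with 10 and 8 genes higher and none lower. In that class, which then had 23 anti-Jagged-1 cells, 7.59% of 3767 genes were higher and 5.42% lower. Averaging CPM over cells without them gave 1.19 and 1.17, with 9 and 6 genes higher and none lower. Averaging over all cells, lower-UMI cells included, reversed Isg15 (log2 -0.86), Zbp1 (-1.03), Gbp2 (-0.67), Oasl2 (-0.40) and Cxcl10 (-0.91), and left Irf7 at 0.37. The highest IgG cell, at 187 per 10000, was a lower-UMI cell of a shared barcode.

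**Figure D5:**
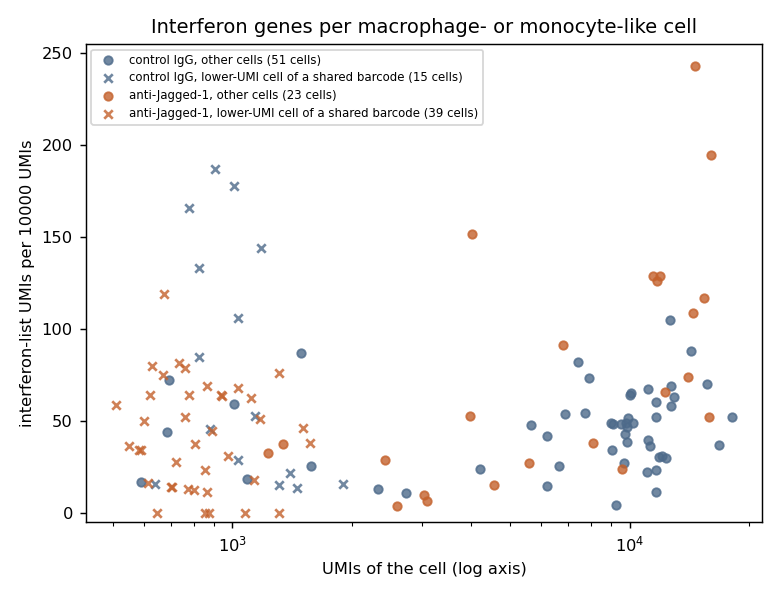
UMIs of 33 interferon genes per 10000 UMIs in each macrophage- or monocyte-like cell against the cell's UMIs (log axis). Circles are ordinary cells and crosses the lower-UMI cells of shared barcodes. Among circles the highest values, up to 243, belong to the anti-Jagged-1 library, where IgG reaches 105, while most anti-Jagged-1 cells of this class are crosses.

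Of 12 genes of MHC class I and peptide loading 6 were higher and none was lower (median log2 0.61). The transporter gene Tap1 was at 114 and 250 CPM and the immunoproteasome genes Psmb9 and Psmb10 at 178 and 338 CPM and at 210 and 369 CPM, with ratios of -0.25 and -0.04 when averaged over all cells. Among chemokines, 5 of 9 were higher and 2 lower. Cxcl9, which draws CXCR3-bearing T cells and leads some of the class's subclusters, was at 66.6 and 1177 CPM but in only 8 and 7 cells, and Cxcl10 at 38.7 and 246 CPM in 8 and 3 cells. Ccl12 had 1 and 26 UMIs, and all 79 anti-Jagged-1 UMIs of Saa3 came from 1 cell. With clustering repeated without the lower-UMI cells Cxcl10 had a ratio of -0.45, and with separate clustering -0.13.

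Of 11 monocyte genes 4 were higher and 1 was lower (median log2 0.36). Plac8 was at 1448 CPM (1340 to 1561) and 2850 CPM (2635 to 3078) in 55 and 39 cells, and Ly6c2 at 408 and 1085 CPM in 32 and 16 cells. Of 8 resident and alternatively activated macrophage genes 3 were lower and 1 higher (median -0.59). Mrc1, the mannose receptor, was at 120 and 61.5 CPM and Chil3 at 144 and 79.1 CPM, while Retnla came from 1 cell in each library. Averaged over all cells, Plac8 had a ratio of 0.13, Ly6c2 of -0.02, Mrc1 of 0.04 and Chil3 of -0.54, and without the lower-UMI cells Mrc1 had one of 0.16. Of 11 complement genes 4 were higher and 1 lower. The 3 C1q genes among them, with C1qa at 165 and 804 CPM in 9 and 8 cells, lead a subcluster of 5 IgG and 7 anti-Jagged-1 cells, and with each cluster given the same weight their ratios were -0.16, -0.12 and -0.04.

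Inflammatory genes moved both ways. Il1b, a cytokine of activated monocytes, was at 2655 CPM (2509 to 2807) with IgG and 1239 CPM (1098 to 1392) with anti-Jagged-1, in 42 and 31 cells, and the chemokine gene Ccl7 at 367 and 136 CPM in 14 and 4 cells. Cxcl2, a neutrophil attractant, was higher at 8213 and 12517 CPM, but under 1.5-fold (log2 0.53) without the top interferon cell of each library. The histone demethylase gene Kdm7a was at 191 and 61.5 CPM, the antiprotease gene Slpi at 133 and 39.5 CPM and the angiogenic factor Vegfa at 155 and 65.9 CPM. Of 12 NF-kB feedback genes 3 were lower, among them Nfkbie (198 and 70.3 CPM) and Bcl3 (170 and 79.1 CPM), and 2 were higher. Averaged over all cells Il1b, Slpi and Ccl7 had ratios of 0.45, 0.42 and -0.30. Hspa1a, a heat shock gene, was at 81.6 and 422 CPM, with 46.9% of the anti-Jagged-1 UMIs from 1 cell.

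Smaller classes are given by their UMIs, since under 50 cells were held by each library. Gamma-delta T-like cells of cluster 20, led by Cd163l1, Trdc and Il17a, had 2 Il17a UMIs in 1 of 9 IgG cells and 62 in 8 of 22 anti-Jagged-1 cells, of which 1 cell gave 32. Notch2 had 1 UMI there with IgG (19.1 CPM, 0.482 to 106) and 18 with anti-Jagged-1 (152 CPM, 90.2 to 240) in 12 cells. Dendritic-like cells, 16 and 14, had Cd209a, a type 2 dendritic marker, at 458 CPM (360 to 574) and 130 CPM (85.7 to 189) in 8 and 3 cells. Of its 27 anti-Jagged-1 UMIs, 14 came from 1 cell. Rbpj was at 232 CPM (164 to 319) and 130 CPM (85.7 to 189) in dendritic-like cells. Cxcl9 was at 556 and 462 CPM there, in 4 and 5 cells. A single cell gave 52 of its 91 IgG UMIs and 48 of its 96 anti-Jagged-1 UMIs. In basal epithelial-like cells of the anti-Jagged-1 library Hes1 was at 257 CPM (186 to 346) in 6 cells, 1 of which gave 14 of its 43 UMIs. In the same cells eGFP had 394 UMIs in 9 of 13 cells. The IgG sum of that class had 3 Hes1 UMIs and 25 eGFP UMIs, and none of either without the lower-UMI cells of shared barcodes.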

How the data were processed

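Single-cell RNA was measured in 1 IgG and 1 anti-Jagged-1 library, grouped by their labels. The authors deposited UMI counts for 22547 genes, eGFP included, in each cell. Per the submitters' processing notes, FastQC, Cell Ranger 3.1.0 and mm10 were used. Filters before deposit are not given in the sources used here. Replicates, pooling of mice and reads per cell are unknown.

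Kept cells were scaled to 10000 counts, log1p-transformed and clustered together (scanpy 1.11.5, 2000 variable genes, 30 components, 15 neighbours, Leiden resolution 1.0, leidenalg 0.10.2). Clusters were named from marker lists, and the naming rule was revised after the clusters were seen. NK-like cluster 5 scored equally for T markers, so the border between T- and NK-like cells is uncertain. Members and lists were chosen with earlier results of these data known. A threshold of 20% of the partner's UMIs defined the lower-UMI cells of shared barcodes after the pairs were seen.

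UMIs were summed per class of at least 50 cells in both libraries. Log2 ratios had a prior of 0.5 counts and exact conditional intervals, shares exact binomial and levels exact Poisson intervals, at 95%. Genes were named by size if they averaged 50 CPM or more and their interval lay beyond 1.5-fold, ranked by the bound nearest to no change (10 each way in T-like cells, 6 elsewhere). Up to 4 members of each list (4 largest classes) and the main Notch genes were added. Predicted, ribosomal, mitochondrial, immunoglobulin and receptor genes and genes with a level more than 5-fold that here in some other class (candidates for free RNA) were left out unless on a list. Some named genes also lead a cluster and helped to form it. Cd79b in B-like and Penk in CD8-gated cells fell under the rule and were left out after their values were seen, as both lead clusters. Some genes under the rule are not reported here. Prss2, Il5, Il13, Csf2, and the genes of smaller classes were picked with their values known. Promoters were read from RefSeq (GRCm38.p6), and gene positions from GENCODE on mm10. Code was tested on simulated counts. Scaling alternatives used edgeR 4.0.16 in R 4.3.3 only for TMM factors. Counts were summed in Python 3.11.15 with pandas 2.3.3, scipy 1.17.1 and numpy 2.4.6, and plotted with matplotlib 3.10.9.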

Additional observations from a re-analysis of the deposited data

How the results depend on the processing

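No paired analysis was possible because each antibody had 1 library. The 183 named genes past 1.5-fold gave 2229 values over the alternatives. Of these values 2058 kept direction and threshold, 130 fell under the threshold and 41 reversed, in 26 genes. The call was kept in every alternative for 111 of the 183 genes. Several alternatives rescale the same class sums, so the values are not independent. Of all genes the split of calls by direction depended on scaling as given above. The T-like share was 75.6% with IgG and 77.4% with anti-Jagged-1 at resolution 0.5, for IgG 67.6% at resolution 2.0 and 75.2% with separate clustering, and for anti-Jagged-1 77.0% without lower-UMI cells of shared barcodes, with the same or new clusters, and 73.0% of every deposited cell. The NK-like IgG share was 4.38% with separate clustering. Macrophage- or monocyte-like shares were 2.21% (IgG) and 0.806% (anti-Jagged-1) at resolution 2.0, and for anti-Jagged-1 0.863% without those cells, 0.938% clustered again without them and 1.04% at a stricter filter (1000 UMIs, 500 genes, 10% mitochondrial). Each share is of the cells its setting keeps. Thinning gave 31.4 and 33.3% CD8, 6.04 and 5.22% CD4, 0.531 and 0.493% Foxp3 and 4.25 and 4.93% Trdc cells. Cells in cycle were 3.12 and 3.55% of T-like and 3.70 and 2.29% of NK-like cells with at least 1 gene, and 0.988 and 2.68% of T-like cells unthinned. A minimum of 100 UMIs left 422, 296, 115 and 124 genes past 1.5-fold in T-, NK-, B- and macrophage- or monocyte-like cells, as fewer genes were measured.

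Reversed log2 ratios were, in NK-like cells, Egr1 and Cma1 at the stricter filter (0.38 and 0.34), without called doublets (0.32 and 0.32), at resolutions 0.5 (0.38 and 0.30) and 2.0 (0.33 and 0.30), clustered again without lower-UMI cells (0.35 and 0.34) and without 4 mast or Il22 cells (0.32 and 0.29). With separate clustering they were Cd3d (-0.28), Cd3e (-0.20), Tnf (1.27), Itga4 (-0.27) and Egr1 (0.43), and Cxcl10 in macrophage- or monocyte-like cells (-0.13). Clustered again without lower-UMI cells, T-like Cd160 (0.02) and Cd74 (0.06) and macrophage- or monocyte-like Cxcl10 (-0.45) reversed. With equal cluster weight T-like Mki67 (-0.01), C1qa (-0.16), C1qb (-0.12) and C1qc (-0.04) did. Averaged per macrophage- or monocyte-like cell, Saa3 (-1.03), C1qb (-0.07), Cxcl10 (-0.91), Retnla (0.13), Il1b (0.45), Slpi (0.42), Isg15 (-0.86), Zbp1 (-1.03), Oasl2 (-0.40), Gbp2 (-0.67), Psmb9 (-0.25), Psmb10 (-0.04), H2-T23 (-0.43), Ly6c2 (-0.02) and Mrc1 (0.04) reversed, and without the lower-UMI cells only Mrc1 (0.16) of the genes named in that class. The cause was not tested. The alternatives without those cells, and without the mast or Il22 cells, were chosen after seeing the data. Genes with under 20 UMIs in a class over both libraries were not compared.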

Other observations

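Among interferon-inducible genes of T-like cells, 2 were higher with anti-Jagged-1, Ifitm3 at 8.07 CPM (6.03 to 10.6) with IgG and 21.5 CPM (18.8 to 24.4) with anti-Jagged-1 and Cxcl10 at 13.7 and 29.7 CPM. Each was the single gene past 1.5-fold on its list, of 16 type I interferon and 14 interferon gamma genes, with list medians of log2 0.12 and -0.10, and both were candidates for free RNA from other classes.

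In T-like cells, none of 17 respiratory chain genes (median log2 0.02), 17 hypoxia and glycolysis genes (0.06) and 12 T cell receptor and costimulation genes (-0.07) was past 1.5-fold in either direction, against a median of -0.08 over all genes. In NK-like cells none of 13 MHC class I genes (0.02) or 11 cytotoxicity genes (-0.14) was past it.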
